A study of Zea mays with 2 samples.

Results

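Maize stores most of its kernel protein as zeins, the prolamins that endosperm cells pack into protein bodies. Alpha-zeins, which fill the body's core, are encoded by tandem arrays of closely related genes, and such arrays are known to mix strongly transcribed copies with truncated or untranscribed ones. The gamma-zeins are cysteine-rich and lie at the periphery of the body. Endosperm transcription factors such as Opaque-2 are known to activate many alpha-zein genes as the kernel fills.

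The loci described here are the rows of 6 windows of the genome chosen as storage-protein arrays, and they cover strong, weak and silent neighbours alike. A row is 1 line of the deposited tables, labelled by its chromosomal start and end in B73 RefGen_v3, and 114 of the 53679 rows lay wholly within a window. The windows are at 161.70 to 162.20 Mb of chromosome 1 with 14 rows, 5.0 to 5.65 Mb of chromosome 4 with 66 rows, 21.30 to 21.37 Mb with 3 rows and 29.90 to 30.20 Mb with 13 rows. On chromosome 7 they are at 18.70 to 18.95 Mb with 11 rows and 120.15 to 120.30 Mb with 7 rows. No row crossed a window edge. The windows were selected on the FPKM and the dek10 to wild-type ratio of their strongest rows, so the values of those rows are descriptions and carry no test.

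RNA came from endosperm of kernels 15 days after pollination in 2 genotypes, wild type and the mutant dek10. The gene mutated in dek10 makes a pentatricopeptide repeat protein that mitochondria need for RNA editing, and mutant kernels develop poorly. Neither the inbred background of the kernels nor the number of kernels used is given in the labels. The design text mentions triplicates, but each genotype is represented by 1 column of FPKM (fragments scaled by transcript length and library size), called a library here, so no difference below has a replicate check or a p-value. In bulk tissue, fewer storage cells and less RNA per cell cannot be told apart. The libraries had similar totals, 1167393 FPKM for wild type and 1140726 FPKM for dek10. Rows outside the windows made up 689776 FPKM of the wild-type total and 1018985 FPKM of the dek10 total, which is 1.48 times as much.

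The tables carry no gene names, so the label of the windows could not be checked row by row. The RefSeq gene table, which describes another assembly (Zm-B73-REFERENCE-NAM-5.0), was used for gene names and neighbourhood only. It places 5 z1D genes on chromosome 1. On chromosome 4 it lists, in this order, 14 z1C1 genes, 9 z1A1 genes, the single z1C2 gene and 3 z1A2 genes. Between these groups lie 20, 349 and 191 genes, in the same order. Chromosome 7 holds 9 z1B genes and, farther along, the adjacent gamma-zein genes gz50 and gz27. Other zein genes of that table, such as gz16 on chromosome 2 and bz15 on chromosome 6, lie on chromosomes without a window. The named groups on chromosomes 1, 4 and 7 were picked because windows lie there, so the match of chromosomes is in part by selection. Of these 43 genes on chromosomes 1, 4 and 7, RefSeq classes 24 as protein-coding and 19 as pseudogenes, among them 7 of the z1C1 genes and 6 of the z1B genes. The z1A, z1B, z1C and z1D groups are the alpha-zein subfamilies. Which row is which gene is not established, and rows are named by position. The sequences of the copies were not analysed here.

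Almost all transcript signal of the windows came from a minority of rows, and these were in sum about 4-fold less abundant in dek10. Rows with a mean of both libraries of at least 500 FPKM are called abundant. There were 34 of them, or 29.8% of the members against 0.378% of all rows, a contrast that the choice of windows fixes. All 34 reached 500 FPKM in wild type and 29 did in dek10, so some entered the class through wild type alone. The 34 rows held 99.7% of the windows' FPKM in wild type and 99.1% in dek10. Together they summed to 475947 FPKM in wild type and 120619 FPKM in dek10, 3.95-fold lower. All members together took 40.9% of the wild-type library and 10.7% of the dek10 library. Of the 10 highest rows, 9 were members in wild type and 4 in dek10.

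**Figure D1:**
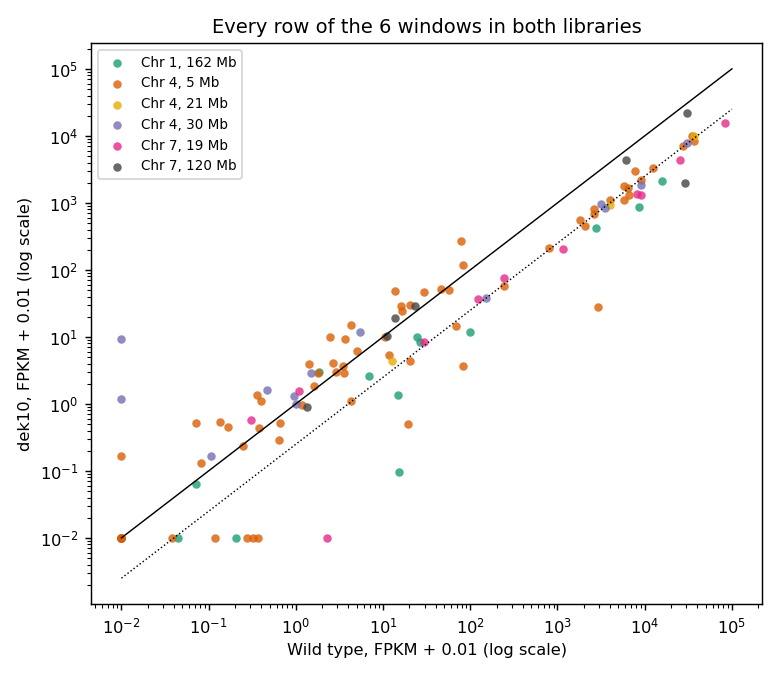
FPKM of all 114 rows in wild type (x axis) and dek10 (y axis), both with 0.01 added and on log scales, coloured by window. The solid line marks equal values and the dotted line a 4-fold lower value in dek10. Many abundant rows at the upper right lie near the dotted line. The abundant rows of chromosome 1 and of 19 Mb of chromosome 7 lie below it, and a row of the 5-Mb window of chromosome 4 lies farthest below. The 120-Mb pair on chromosome 7 is nearer to the solid line, and weaker rows scatter on both sides of that line.

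Ratios were taken as log2 of dek10 over wild type after 1 FPKM was added to both, for rows of at least 1 FPKM in at least 1 library, which 89 of the 114 members were. A ratio of at least 2-fold on this scale was the size that counted. Of the 89 rows, 51 were lower in dek10, 9 were higher and 29 lay between. Among all 29588 rows of that level, 6.79% were lower and 23.0% higher. The lower share among members repeats what the windows were chosen for. With dek10 divided by the median ratio of all rows, which shifts it down by 0.58 on the log2 scale, 53 members were lower and 5 higher, against 10.5% and 9.08% of all rows.

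Weaker rows of the windows went both ways, unlike the abundant rows, whose direction the choice of windows fixes. Among the abundant rows, 32 of 34 were lower and none higher, with a median log2 ratio of -2.03, while the 169 abundant rows elsewhere had a median of 0.57, with 16.0% lower and 38.5% higher. The 55 rows between silence and 500 FPKM, called weaker here, had a median of 0.12, with 19 lower, 9 higher and 27 between. This differed by window: 6 of 7 were lower on chromosome 1 and 4 of 5 at 19 Mb of chromosome 7, with medians of -1.57 and -1.69, as the abundant rows there were. Without the 5-Mb window of chromosome 4, the weaker members' median was -0.72. Weaker rows elsewhere had a median of 0.49, with 6.58% lower and 23.0% higher. After median-of-ratios scaling all 34 abundant rows were lower, with a median of -2.61. That scaling turned the weaker members' median to -0.36 and brought that of weaker rows elsewhere to 0.014.

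**Figure D2:**
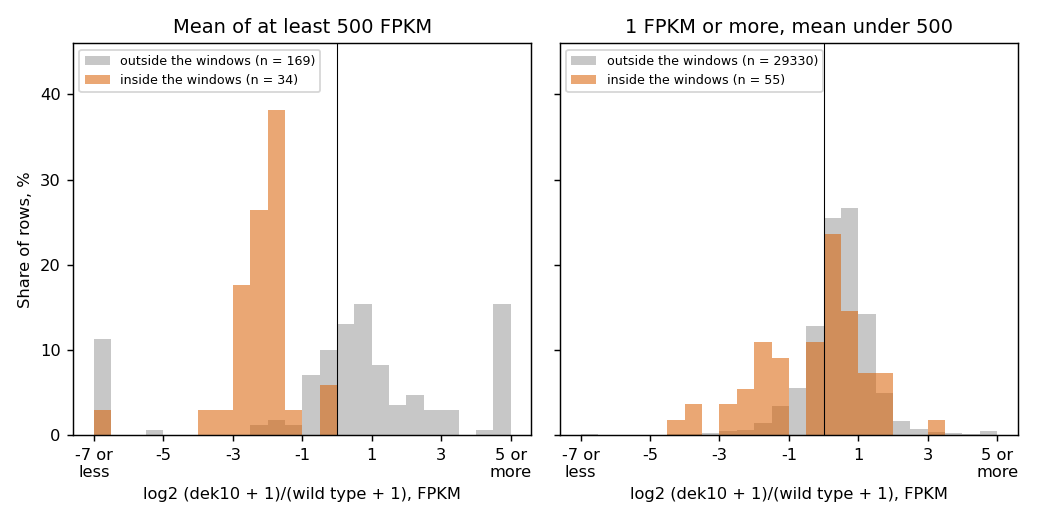
Share of rows (y axis, %) by log2 ratio of dek10 over wild type with 1 FPKM added (x axis, bins of 0.5), for abundant rows (left) and weaker rows (right), inside the windows in orange and outside in grey; the end bins also hold all values beyond them. Abundant members sit left of 0, whereas weaker members form a group near that of other rows and a second group between -1 and -4.17.

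The 5-Mb window of chromosome 4 was the largest window and held 17 of the abundant rows. Its 66 rows summed to 170128 FPKM in wild type and 44421 FPKM in dek10, 3.83-fold lower, and all 17 abundant rows were lower. These formed 2 groups, at 5083079 to 5177135 and at 5521259 to 5561370, with 344 kb between them. Whether the groups are separate arrays was not tested. The first group's 11 abundant rows summed to 104822 FPKM in wild type and 27340 FPKM in dek10. The second group's 6 summed to 64449 FPKM and 16251 FPKM. The folds, 3.83 and 3.97, were close to each other.

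Leading rows of this window kept nearly the same weight in both genotypes. A row at 5535486 to 5536705 had 36692 FPKM in wild type and 8492 FPKM in dek10, which was 21.6% and 19.1% of the window. The strongest of the rows at 5098147 to 5142076 had 34479 FPKM in wild type and 9814 FPKM in dek10, or 20.3% and 22.1%. The row at 5171933 to 5177135 held 16.1% in both, with 27343 FPKM in wild type and 7140 FPKM in dek10. These leaders therefore exchanged first and second place with a small shift in share. The row at 5145291 to 5146364, with 12545 FPKM in wild type and 3274 FPKM in dek10, held 7.37% in both. The row at 5521259 to 5523302 had the smallest difference among the abundant rows here, with 7731 FPKM in wild type and 2991 FPKM in dek10, 2.59-fold lower.

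Around the left end of the first group, 3 consecutive positions were far lower in dek10 than the remaining abundant rows of the window. Of these, only the position at 5083079 to 5084155 was itself abundant, and the first lay just before the group. The row at 5079765 to 5080833 had 83.4 FPKM in wild type and 3.69 FPKM in dek10, 22.6-fold lower. Its neighbour at 5083079 to 5084155 had 2942 FPKM in wild type and 27.5 FPKM in dek10, 107-fold lower. The next row, at 5086216 to 5087171, had 19.5 FPKM in wild type and 0.489 FPKM in dek10, a log2 ratio of -3.78 with the pseudocount. These rows span 956 to 1077 bp and were picked for description because of these values. The following row, at 5094105 to 5094990, was 3.91-fold lower, with 6453 FPKM in wild type and 1648 FPKM in dek10, and the abundant rows after it were 2.59-fold to 5.22-fold lower. The abundant row among the 3 was thus the 12th strongest of the window in wild type and the 26th in dek10.

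The 344-kb stretch between the groups contained 33 rows, none of them abundant, and its ratios were near those of all rows. Its rows summed to 334 FPKM in wild type and 454 FPKM in dek10, 1.36-fold higher in the mutant. All rows outside the windows were 1.48-fold higher in sum. Of 18 rows of at least 1 FPKM, 14 lay between, 3 were higher and 1 was lower, and their median log2 ratio of 0.50 was near the 0.49 of all rows. The row of highest mean, at 5253223 to 5261670, had 82.5 FPKM in wild type and 117 FPKM in dek10. The pair of rows at 5264929 to 5267263 had 13.8 and 4.25 FPKM in wild type and 48 and 15 FPKM in dek10, 3.47-fold and 3.53-fold higher. The single lower row, at 5495165 to 5495916, lay 25343 bp from the second group and had 20.4 FPKM in wild type and 4.29 FPKM in dek10. To the left of the first group, the row at 5012238 to 5017850 was the strongest weaker row of the window, with 79.2 FPKM in wild type and 269 FPKM in dek10, 3.39-fold higher. To the right of the second group, the row at 5594840 to 5595805 had 242 FPKM in wild type and 57.0 FPKM in dek10, 4.24-fold lower, a ratio like that of the abundant rows.

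**Figure D3:**
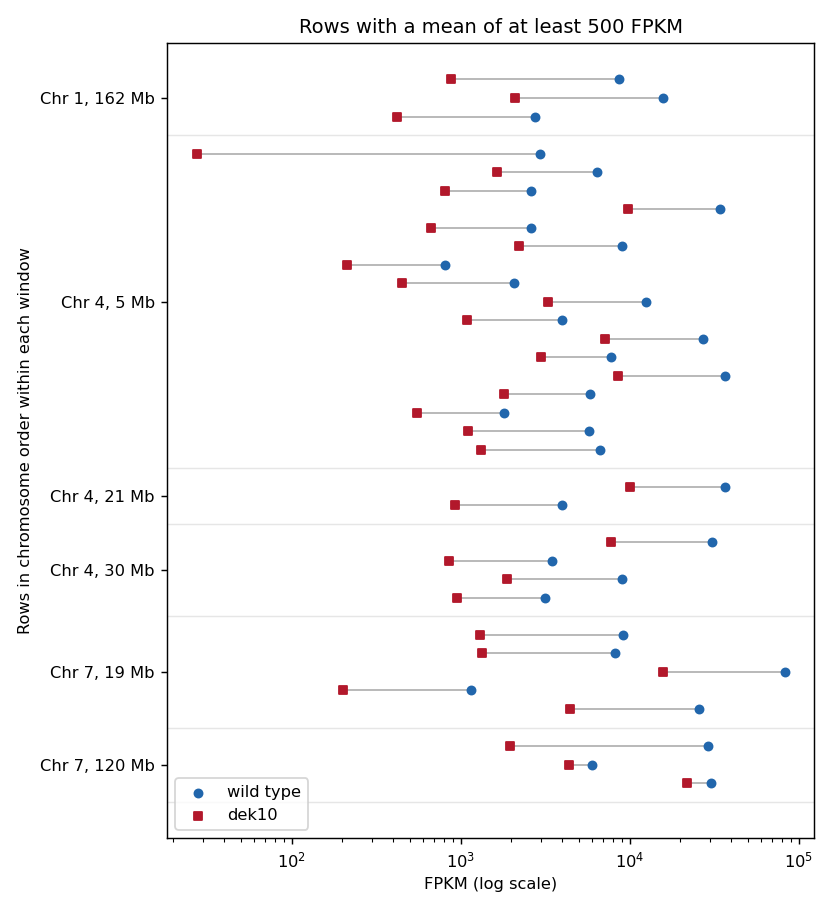
FPKM (x axis, log scale) of the 34 abundant rows in wild type (blue circles) and dek10 (red squares), joined by a line per row and ordered along the chromosome within each window. Every wild-type value lies to the right of its dek10 value; the line is longest for a row of the 5-Mb window of chromosome 4 (2942 against 27.5 FPKM) and shortest for the last 2 rows of chromosome 7.

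The 21-Mb window of chromosome 4 was a single strong position with 2 rows. At 21334901 to 21335979, one row had 36766 FPKM in wild type and 10099 FPKM in dek10, and the other had 3978 FPKM and 926 FPKM. The stronger row thus held 90.2% of the window in wild type and 91.6% in dek10. The only other row, at 21342654 to 21344213, had 12.5 FPKM in wild type and 4.36 FPKM in dek10, 2.86-fold lower, like its strong neighbour at a much lower level.

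The 30-Mb window of chromosome 4 had 4 abundant rows, all lower, among weak rows that were mostly not. Its leader at 29951761 to 29952727 had 30637 FPKM in wild type and 7810 FPKM in dek10. A second row at the same coordinates had 152 FPKM and 38.1 FPKM, so both rows were about 4-fold lower, by 3.92-fold and 4.0-fold. The rows at 29963321 to 29964591 had 9004 and 3471 FPKM in wild type and 1875 and 852 FPKM in dek10. The row at 30089546 to 30091004, 124955 bp away from its nearest abundant neighbour, had 3162 FPKM in wild type and 947 FPKM in dek10, 3.34-fold lower, the smallest fold of the 4.

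Of the 7 weaker rows of this window, 3 were higher in dek10, against 23.0% of weaker rows elsewhere. The row at 29925149 to 29927518 had 5.39 FPKM in wild type and 11.8 FPKM in dek10, 2.19-fold higher. Its log2 ratio with the pseudocount, 1.003, barely passed. The row at 30124170 to 30124529 had 9.36 FPKM in dek10 and that at 29900780 to 29901729 had 1.19 FPKM, and both were listed at 0 in wild type. Scaled by the median of ratios, 1 of the 3 still passed the 2-fold size. These rows lay 24243 to 50032 bp from an abundant row.

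The 19-Mb window of chromosome 7 had abundant rows of nearly equal length. Its 5 abundant rows, all lower, spanned 722 to 726 bp and shared coordinates with no other row. The leader at 18865424 to 18866146 had 83091 FPKM in wild type, the highest value of that library, and 15729 FPKM in dek10. Beside it, 1586 bp away, the row at 18867732 to 18868453 had 1156 FPKM in wild type and 202 FPKM in dek10. Levels of these neighbours differed widely while their folds, 5.28 and 5.72, were similar. The row at 18877460 to 18878182 had 25567 FPKM in wild type and 4429 FPKM in dek10. The rows at 18755936 to 18756661 and 18779575 to 18780300 had 9121 and 8171 FPKM in wild type and 1305 and 1339 FPKM in dek10, so their order was exchanged.

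A sixth row of the same length was weak. At 18789875 to 18790599, its 725 bp had 121 FPKM in wild type and 36.8 FPKM in dek10, 3.30-fold lower. Other weak rows were the one at 18923142 to 18925030, with 244 FPKM and 76.7 FPKM, and the one at 18880052 to 18880380, with 29.2 FPKM and 8.29 FPKM. Their folds, 3.18 and 3.52, were below those of all 5 abundant rows, which ran from 5.28 to 6.99. The row at 18786694 to 18786993 had 2.28 FPKM in wild type and was listed at 0 in dek10. A row at 18880864 to 18881228, between 1.09 FPKM in wild type and 1.57 FPKM in dek10, was the only weaker row here that was not lower.

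In the 120-Mb window of chromosome 7 the strongest rows differed widely in ratio. The row at 120206897 to 120208211 had 29079 FPKM in wild type and 1956 FPKM in dek10, 14.9-fold lower. The rows at 120233940 to 120236057, 25729 bp further on, had 30268 and 6032 FPKM in wild type and 21792 and 4375 FPKM in dek10, only 1.39-fold and 1.38-fold lower. In wild type the strongest rows of the 2 positions were nearly equal, with a ratio of 1.04, and in dek10 the second position's row was 11.1 times the first. The share of the first position dropped from 44.4% of the window to 6.94%. The rows of the second position passed the 2-fold size after median-of-ratios scaling, with log2 ratios of -1.06 and -1.05. Their 21792 FPKM row was the third highest row of the dek10 library.

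Weaker rows of the 120-Mb window differed little between genotypes. The rows at 120237787 to 120284629 had 23.2 and 11.0 FPKM in wild type and 28.7 and 10.4 FPKM in dek10. The row at 120287526 to 120289215 had 13.8 FPKM and 19.4 FPKM. None of the window's 4 weaker rows passed the 2-fold size on either scale.

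The window of chromosome 1 had the largest fold in sum, with 27364 FPKM in wild type and 3431 FPKM in dek10, 7.98-fold lower. Its leader at 162006911 to 162007636 had 15817 FPKM in wild type and 2098 FPKM in dek10, and the row at 161790710 to 161791432 had 8605 FPKM and 873 FPKM. These rows span 726 and 723 bp, as the abundant rows of the 19-Mb window of chromosome 7 do. A long row at 162047479 to 162097052 had 2751 FPKM in wild type and 422 FPKM in dek10. All 3 abundant rows kept their order in dek10.

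Weak rows of the chromosome 1 window were lower as well, 6 of 7. The row at 161795490 to 161795834, 4058 bp from an abundant row, had 99.9 FPKM in wild type and 11.7 FPKM in dek10, 8.52-fold lower. The row at 162008981 to 162009307 had 15.0 FPKM and 1.36 FPKM, 11.0-fold lower. The row at 161809221 to 161812401 had 15.2 FPKM in wild type and 0.088 FPKM in dek10, a log2 ratio of -3.90 with the pseudocount; no fold is given, because the dek10 value is too near 0. The pair at 161722413 to 161724923 had 26.8 and 24.8 FPKM in wild type and 8.36 and 10.1 FPKM in dek10. Both rows of this pair were lower although 65787 bp separate them from the nearest abundant row.

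The division of signal among the rows of a window was similar in the genotypes for 5 of the 6 windows. The share of a window's FPKM that was placed on other rows in dek10 than in wild type was 1.36% at 21 Mb of chromosome 4, 3.07% at 19 Mb of chromosome 7, 3.26% at 30 Mb of chromosome 4, 6.09% on chromosome 1 and 6.65% at 5 Mb of chromosome 4. It was 37.5% at 120 Mb of chromosome 7. Across the 34 abundant rows, the rank order of FPKM in the libraries had a Spearman rho of 0.916, and 0.946 across the 17 of the 5-Mb window. These rows share 2 libraries and partly their coordinates, so the coefficients describe the arrays and have no test.

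**Figure D4:**
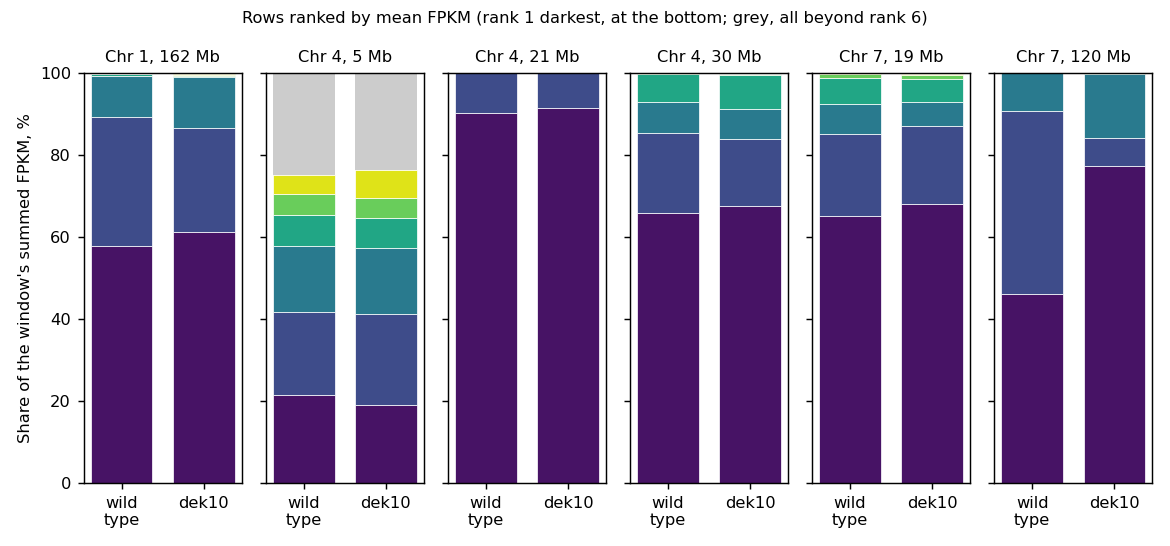
Share of each window's summed FPKM (y axis, %) held by its rows in wild type and dek10, ranked by mean FPKM with rank 1 at the bottom; grey is all rows beyond rank 6. The bars of a window look alike in both genotypes except at 120 Mb of chromosome 7, where rank 2 dropped from 44.4% to 6.94%.

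The weaker rows were also counted by their distance from an abundant row, as a description with no test. The limit of 20 kb between near and far was set after the values were seen. Of 25 weaker rows that overlapped an abundant row or lay within 20 kb of one, 13 were lower, 1 higher and 11 between, with a median log2 ratio of -1.01. The 6 overlapping rows all carry the coordinates of an abundant row, so their own distance is not known. Of the other 19, 9 were lower, 1 higher and 9 between, with a median of -0.31. Of 30 farther rows, 6 were lower, 8 higher and 16 between, with a median of 0.50. Weaker rows outside the windows had a median of 0.49, with 6.58% lower and 23.0% higher. After median-of-ratios scaling the medians of near and far rows were -1.48 and 0.0088, with 13 and 6 rows lower. Weaker rows outside the windows then had a median of 0.014, with 3016 of 29330 lower. Near rows summed to 745 FPKM in wild type and 246 FPKM in dek10, 3.03-fold lower, and far rows to 920 FPKM and 871 FPKM. The near and far rows come from different windows in part: 21 of the 30 far rows are from the 5-Mb window of chromosome 4, and the part of the window in this contrast was not tested.

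Within single windows the near rows did not all behave alike. On chromosome 1 all 3 near rows were lower, as were 3 of 4 at 19 Mb of chromosome 7 and the single one at 21 Mb of chromosome 4. At 5 Mb of chromosome 4, 2 of 5 near rows and 3 of 5 overlapping rows were lower, against 2 of 21 far rows. At 30 Mb of chromosome 4, 1 overlapping row was lower and none of 3 near rows, and at 120 Mb of chromosome 7 none of 3 near rows was lower. The near row that was higher lay at 5508409 to 5513442, with 2.46 FPKM in wild type and 9.82 FPKM in dek10, 3.99-fold higher.

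**Figure D5:**
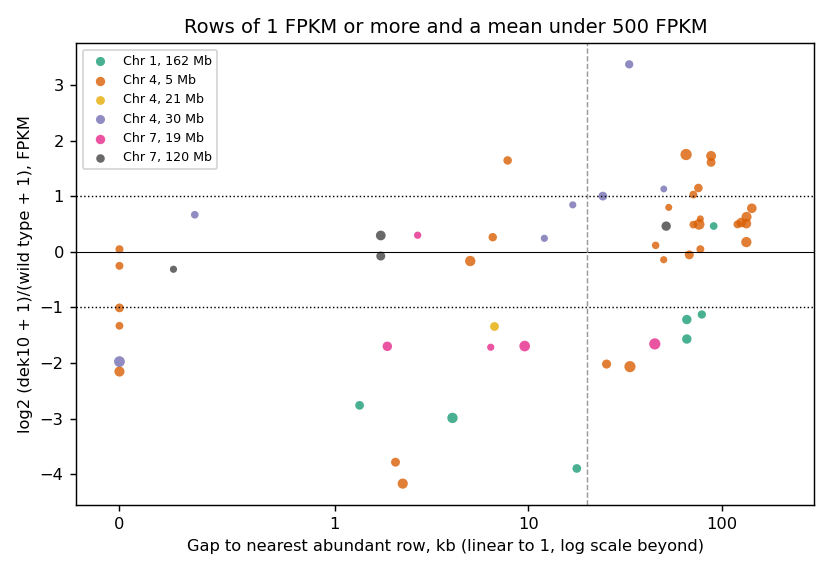
Log2 ratio of dek10 over wild type with 1 FPKM added (y axis) of the 55 weaker rows against the gap to the nearest abundant row of the window (x axis, kb, linear up to 1 and log scale beyond), with larger points for a higher mean FPKM. Dotted lines mark the 2-fold size and the dashed line 20 kb; 13 of the 25 rows to its left lie at or below -1, against 6 of the 30 to its right.

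Several weak rows carry the coordinates of an abundant row. Among 18 positions with more than 1 member, 10 held an abundant row, and 6 of these also held a row under 500 FPKM. The position 5535486 to 5536705 of chromosome 4 had 36692 FPKM in wild type on one row, while its second row was listed at 0 in both libraries. At 5544525 to 5545663, the strong row had 1802 FPKM in wild type and 553 FPKM in dek10, and the weak row 67.8 FPKM and 14.5 FPKM. Strong and weak row were both lower there, by 3.26-fold and 4.68-fold. At 5539880 to 5541152, 5842 FPKM in wild type and 1800 FPKM in dek10 stood beside 4.28 FPKM and 1.1 FPKM. At 5521259 to 5523302, the weak row had 11.7 FPKM in wild type and 5.32 FPKM in dek10. It was 2.20-fold lower, beside 2.59-fold for the strong row.

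The position 5098147 to 5142076 of chromosome 4 is 43930 bp long and holds 8 rows. Its 6 abundant rows ran from 808 to 34479 FPKM in wild type and from 213 to 9814 FPKM in dek10, and each was 3.21-fold to 4.60-fold lower. Its other 2 rows had 3.56 and 3.47 FPKM in wild type and 2.83 and 3.62 FPKM in dek10. Those 2 rows were nearly equal between genotypes amid strong rows that were all lower. The sources used here do not say how reads were shared out between rows of the same coordinates or between very similar copies, so a sum is more certain than a single row.

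Silent rows, under 1 FPKM in both libraries, made up a smaller share of the windows than of the genome. They were 25 members, or 21.9%, against 44.9% of all rows. Listed at 0 in both libraries were 5 members, or 4.39%, against 9.69% of all rows. Of the 25, 18 were in the 5-Mb window of chromosome 4, 4 on chromosome 1, 2 at 30 Mb of chromosome 4 and 1 at 19 Mb of chromosome 7. The other 2 windows had none. Most silent rows did not adjoin strong ones: 5 overlapped or lay within 20 kb of an abundant row and 20 lay farther away. All 25 together summed to 5.06 FPKM in wild type and 4.96 FPKM in dek10, so their levels were alike in sum. Crossing the limit of 1 FPKM were 6 members that were under it in wild type only and 5 that were under it in dek10 only. The share of silent rows rests on windows chosen for strong rows.

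Some silent rows had abundant rows on both sides. On chromosome 4, the row at 5154347 to 5155431 spans 1085 bp, between the abundant rows at 5145291 to 5146364 and at 5157899 to 5159215, and had 0.655 FPKM in wild type and 0.515 FPKM in dek10. Its neighbours had 12545 and 4003 FPKM in wild type. At 30 Mb, the row at 29973010 to 29973474 had 0.982 FPKM in wild type and 0.993 FPKM in dek10, close to the limit. Others lay beyond the last abundant row of their window. On chromosome 1, the row at 162112096 to 162114852, 15044 bp past that row, had 0.035 FPKM in wild type and was listed at 0 in dek10. At 19 Mb of chromosome 7, the row at 18940654 to 18943011 had 0.294 FPKM and 0.563 FPKM. None of these low values can be told from absence of transcript, because read depth is unknown.

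No member had a mean between 174 and 510 FPKM, the interval in which the class limit of 500 FPKM lies. The abundant rows of lowest mean, 510 and 679 FPKM, were 1 of the 8 rows at 5098147 to 5142076 of chromosome 4 and the one at 18867732 to 18868453 of chromosome 7. The weaker rows of highest mean had 174 and 160 FPKM, at 5012238 to 5017850 of chromosome 4 and at 18923142 to 18925030 of chromosome 7. At the window edges, the outermost row inside and the first row outside were weak at most edges. An exception was the 19-Mb window of chromosome 7, whose last row inside had 0.294 FPKM in wild type and 0.563 FPKM in dek10, while the first row outside, at 18954726 to 18955697, had 363 FPKM and 40.1 FPKM. On chromosome 4 the outermost left row of the 21-Mb window was itself abundant, as were the left rows of both chromosome 7 windows.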

How the data were processed

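RNA-seq of dek10 and wild-type endosperm, 1 library each, was analysed. The authors' tables give FPKM for 53679 rows, per the file headers. Alignment software and build were Bowtie 0.12.2 and B73 RefGen_v3, per the submitters' processing notes. The program that made the FPKM, the annotation and the filters are not given in these sources. The tables were paired by row order, which is identical. Starts are counted from 0 in the files, so 1 was added. In all, 11683 rows share coordinates with another row. Read depth is unknown, so no counting interval is given.

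Members and lists were chosen with earlier results of these data known. Log2 ratios use a pseudocount of 1 FPKM, which understates changes of low rows; folds of rows and sums use plain FPKM. Rows were named by a rule: up to 6 abundant, 3 weaker, 1 silent and up to 2 higher rows per window; others named were picked after their values were seen. Alternatives in scaling, pseudocount, filter, class limits and shared coordinates were tried. The calculation was tested on simulated data. Python 3.11.15, numpy 2.4.6, pandas 2.3.3 and matplotlib 3.10.9 were used.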

Additional observations from a re-analysis of the deposited data

How the results depend on the processing

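Of 64 alternative values, 39 were within 1.5-fold of the reported count or ratio of sums or within 0.1 of the reported log2 median and 25 moved further. The abundant rows' median stayed below 0 in every alternative, but the choice of windows fixes that sign. The medians of the weaker and of the far rows changed sign, as given below. The ratio of summed FPKM over members, 0.255, lay between 0.170 and 0.255. Members higher in dek10, 9, became 5 under median-of-ratios scaling, 5 with equal totals outside the windows and 4 with a pseudocount of 5; the 4-fold size left 26 lower and 1 higher. The abundant rows' median, -2.03, was -2.61 and -2.59 under those scalings, which lower all dek10 values by a constant. The weaker rows' median, 0.12, turned to -0.40 and -0.38 under them, with classes set again on the scaled values, to -0.0034 with classes by dek10 alone, to 0 without a filter and to 0.26 with rows at one position summed. Silent members, 25, were 5 when listed at 0 in both and 44 under 5 FPKM. Leaving out the 5-Mb window of chromosome 4 gave 27 lower, 3 higher and 7 silent rows, and medians of -2.40 and -0.72, so the weaker rows' sign rests on that window. With limits of 10 and 50 kb, chosen after seeing the data, near rows had medians of -1.17 and -0.66 and far rows of 0.49 and 0.51; median-of-ratios scaling, with classes set again, turned the far rows' median from 0.50 to -0.052. No paired analysis was possible because there is a single library for either genotype.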

Other observations

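Rows flanking the windows by up to 250 kb on each side, which the choice of windows left out, were mostly weak. There were 78 of them, 0 with a mean of at least 500 FPKM. Of the 39 with at least 1 FPKM in a library, 4 were at least 2-fold lower in dek10 and 16 at least 2-fold higher. Their median log2 ratio was 0.69 on the deposited scale. Among all rows of that level, 6.79% were lower and 23.0% higher, with a median of 0.49. Flanking rows were not counted on the median-of-ratios scale. The 4 lower rows all flank the windows of chromosome 7. Both rows at 18954726 to 18955697 were lower, with 363 and 26.1 FPKM in wild type and 40.1 and 3.11 FPKM in dek10, as was the row at 19063721 to 19101243, with 5.04 FPKM and 1.33 FPKM. The fourth, at 120138889 to 120143660, had 32.7 FPKM in wild type and 0.705 FPKM in dek10. Among stronger flanking rows that were higher, the row at 4758093 to 4759848 of chromosome 4 had 188 FPKM in wild type and 437 FPKM in dek10.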
